A study of Homo sapiens with 18 samples.

Results

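The comparison covers the 6 RNA-seq libraries, of 18 in the series, that came from RWPE1 cells carrying the activating MACC construct, 3 with tamoxifen and 3 with vehicle. They were chosen by their labels. RWPE1 is an established benign human prostate epithelial cell line. A MACC joins the DNA-binding domain of a steroid hormone receptor to ERT2, a mutated hormone-binding domain of the estrogen receptor, and carries a FLAG epitope tag. The activating form adds VP64, a transcriptional activator. The other lines of the series carry the neutral form, which has the tag and no effector, or the repressive form, which adds KRAB. Every line, controls included, held a construct and had been infected with lentivirus and selected with blasticidin, and each construct was present in 1 cell line. Cells received tamoxifen or ethanol for 48 hours. The treatment label gives the dose as 1.5 uM and the protocol field as 1.25 uM, and this was not resolved. The labels call the 3 libraries of a group biological replicates and do not say how they were separated, so that p-values measure the spread between these libraries.

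Steroid hormone receptors are ligand-bound transcription factors that read response elements, paired hexamers found mostly in enhancers, and in prostate epithelium they take part in secretory differentiation. Tamoxifen moves an ERT2 fusion from the cytoplasm to the nucleus. The comparison therefore asks which transcripts change when an activator is brought to the sites that the receptor domain can read. The vehicle and tamoxifen libraries differ in the drug as well as in the position of the construct. The neutral line, which received the same drug, was therefore set beside many of the results. The difference of the tamoxifen effects was tested as well. A row given without a neutral value is not thereby shown to be particular to the activating line.

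The deposited values are estimated counts per gene. Total counts of the 6 libraries lay between 680596 and 770001, at which 3 counts, taken as the floor, are worth 3.9 to 4.41 CPM. KRT5 stood between 810 and 934 normalized counts with vehicle, whereas 6 of 9 stromal, 2 of 3 endothelial, 4 of 6 immune and 2 of 5 neuroendocrine marker rows were at 0 in all 6 libraries. Their summed counts per library were 141 to 150 with vehicle and 104 to 161 with tamoxifen for the stromal list, 25 to 28 and 18 to 28 for the immune list, and at most 6 for the other lists. Rows opposite a marker held 9 to 25 counts for the stromal and 19 to 38 for the immune list. Since the own row of an expressed gene can be nearly empty in this table, as that of HMGCS1 is, these low values do not show that the markers are absent. KLK3, the gene of prostate-specific antigen and a luminal marker, had 0 counts in all 6 libraries. ESR1, part of which the construct carries, had 28, 30 and 42 counts with vehicle and 36, 36 and 38 with tamoxifen. ZNF10, a source of KRAB domains, had 0 counts in the activating line.

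Of 5816 rows tested, 163 (2.8%) changed with tamoxifen in the activating line at a DESeq2 adjusted p under 0.05. A row is the entry of the table for 1 gene, and rows with at least 10 counts in at least 3 of the 18 libraries were tested. There were 78 rows that rose (1.34% of those tested) and 85 that fell (1.46%). In the same fit 45 rows (0.774%) changed in the neutral line and 561 (9.65%) in the repressive line. Of the 163 rows, 21 also changed in the neutral line and 84 in the repressive line. Changes were mostly small, with a median log2 fold change of 0.54 among the rows that rose and -0.55 among those that fell, and 11 rows rose and 10 fell by more than 1 on the log2 scale. In 159 of the 163 rows the tamoxifen and vehicle values did not overlap, compared with 16% of all rows tested. Rows that changed had a median of 272 normalized counts (counts divided by the size factor of the library) against 16.6 over all tested rows, and independent filtering left an adjusted p for 1644 rows.

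**Figure D1:**
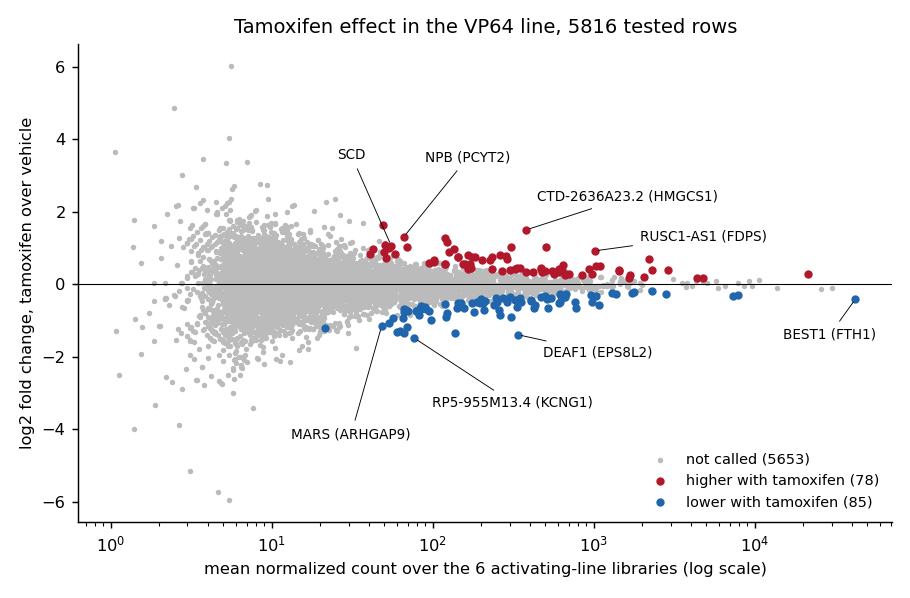
Each point is 1 of 5816 tested rows, plotted by its mean normalized count over the 6 activating-line libraries (log scale) and its log2 fold change, tamoxifen over vehicle. The 78 rows that rose are red and the 85 that fell are blue, and both lie mainly to the right of the scatter of low-count rows. Names in brackets are genes on the opposite strand.

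Most of these rows share their exons with a gene on the other strand. By identifier, 152 of the 163 rows were matched to the GENCODE annotation of GRCh37, the build of the table, and 137 of them (90.1%) overlapped exons of an opposite-strand gene, against 67.9% of all matched rows tested. The opposite gene was protein-coding for 114 rows. Of 55 rows annotated as long non-coding RNA (lncRNA), 52 lay opposite a protein-coding gene, beside 996 of 1136 such rows among all tested. There were 19 rows covered in full, beside 258 of all tested. Where the table also held a row for the opposite gene, the changed row had the higher mean normalized count per kb of exon in 114 of 126 pairs (90.5%), against 69.1% over all tested rows. Changed rows also held more counts than the tested rows at large, and 89% of matched counts lay in rows with an opposite overlap. Whether these higher shares go with count level was not tested. The library kit marks strand and the strand setting of the counting was not given in the sources used here. Reads of a gene and of its opposite partner therefore cannot be told apart from this table, and each row is named below with the gene it may stand for. A row without an opposite gene may also hold only part of its gene's reads, which was not tested. That of ACTB, for example, had means of 75.6 and 114 normalized counts with vehicle and tamoxifen.

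Background on the lipid pathways helps in reading the rows that rose. Cholesterol is built from acetyl-CoA through mevalonate and isoprenoid intermediates, and its enzymes are transcribed together by SREBP factors when sterols run low. SREBP factors also drive fatty acid synthesis and desaturation, and growing epithelial cells need both products for membranes.

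The row with the largest change among the well-counted rows that rose was CTD-2636A23.2, an lncRNA on chromosome 5 (43287703 to 43290941, plus strand, GRCh37). All of its 2497 exonic bases lie within exons of HMGCS1, the enzyme that makes HMG-CoA. It had 216, 184 and 196 normalized counts with vehicle and 525, 477 and 693 with tamoxifen. Every tamoxifen library stood above every vehicle library, a 2.84-fold difference of the means (log2 1.51 ± 0.14 SE, adjusted p = 1.15e-24, n = 3 and 3). The row of HMGCS1 itself was nearly empty, with means of 0.935 ± 0.92 (SD) and 4.01 ± 3.73 (SD) normalized counts. Per kb of exon, CTD-2636A23.2 held 153 normalized counts and HMGCS1 0.373. In the neutral line the same row rose by 0.69 ± 0.14, and the effects of both lines differed (difference 0.82 ± 0.19 SE, adjusted p = 0.00351). In the repressive line it rose by 2.55 ± 0.13.

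Other steps of the mevalonate pathway lay opposite rows that rose. RUSC1-AS1 (chromosome 1, 155286654 to 155293967, minus strand) overlaps 693 bases of FDPS, which makes farnesyl diphosphate. It had 769, 672 and 654 normalized counts with vehicle and 1229, 1214 and 1534 with tamoxifen, again without overlap (log2 0.93 ± 0.10 SE, adjusted p = 8.96e-16). IDI2-AS1 overlaps 643 bases of IDI1, the isomerase of the isoprenoid units, and 93 of IDI2. It had 101, 84 and 80.6 normalized counts with vehicle and 164, 140 and 188 with tamoxifen (log2 0.89 ± 0.18 SE, adjusted p = 5.35e-05). The IDI1 row had 0 counts in the vehicle libraries. TCP1, a chaperonin subunit, overlaps 454 bases of ACAT2, the thiolase at the entry of the pathway, and had 455, 264 and 272 normalized counts with vehicle against 695, 517 and 815 with tamoxifen (log2 1.03 ± 0.21 SE, adjusted p = 7.53e-05). Vehicle replicate 1 was the highest of its group and still below every tamoxifen library. The ACAT2 row had means of 62.8 and 92.3, and its log2 difference of 0.56 ± 0.24 SE did not pass the test. In the neutral line RUSC1-AS1 rose by 0.675 ± 0.107, while IDI2-AS1 stood at 0.42 ± 0.18 and TCP1 at 0.51 ± 0.22. None of these rows passed the DESeq2 test of the difference from the neutral line (adjusted p = 0.492, 0.458 and 0.48). In the repressive line they rose by 1.04 ± 0.10, 1.58 ± 0.19 and 0.92 ± 0.21.

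Over the list of 25 genes of cholesterol synthesis and uptake, 12 had a testable row of their own and 9 of them were above 0, with a median log2 difference of 0.65, but none was called. Of 8 testable rows opposite a member, 8 were above 0 and 4 rose (the rows at HMGCS1, FDPS, IDI1 and ACAT2), with a median of 0.91. The median over all 5816 rows was 0.00, and over the 1459 rows with a mean of at least 50 it was -0.01. SQLE, a rate-controlling oxygenase, had 2.76, 0.965 and 1.81 normalized counts with vehicle against 9.12, 3.72 and 9.21 with tamoxifen. The groups did not overlap, as at 16% of all tested rows, and independent filtering left no adjusted p. In the neutral line the medians were 0.34 at the members' own rows and 0.46 at the opposite rows, 2 of which rose.

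Fatty acid and phospholipid genes also stood mostly above 0. SCD, the desaturase that makes oleate, has no opposite exon overlap (chromosome 10, 102106990 to 102124583, plus strand) and rose from 39.6, 32.8 and 34.4 to 56.8, 79.1 and 88.4 normalized counts (log2 1.07 ± 0.32 SE, adjusted p = 0.0124). Its call was lost in 4 of 6 fits that left out 1 library (tamoxifen replicate 2 or 3, vehicle replicate 2 or 3), with adjusted p between 0.0672 and 0.13. In the neutral line SCD stood at 1.42 ± 0.35, above its value here. The difference was -0.34 ± 0.48 SE, and neither had an adjusted p. The neuropeptide row NPB lies for 90.1% of its bases opposite PCYT2, an enzyme of phosphatidylethanolamine synthesis. NPB had 42.3, 33.8 and 38 normalized counts with vehicle and 74, 114 and 94 with tamoxifen (log2 1.30 ± 0.30 SE, adjusted p = 0.000524), whereas the PCYT2 row had means of 43.1 and 45.3. With both rows summed the log2 difference was 0.78 (adjusted p = 0.0039). In the neutral line NPB stood at 0.66 ± 0.31, and the difference of 0.64 ± 0.43 SE did not pass the test. Of 10 testable own rows of this list 9 were above 0 and 1 rose, and of 6 opposite rows 6 were above 0 and 1 rose, with medians of 0.98 and 0.90. In the neutral line these medians were 0.35 and 0.35. FADS1 and FADS2, desaturases whose exons overlap on opposite strands, so that each counts as own and as opposite row, had log2 differences of 1.57 ± 0.43 and 1.26 ± 0.36 with no overlap between groups (16% of all tested rows had none) and no adjusted p. FASN, fatty acid synthase, and CHKA, choline kinase, missed the threshold (adjusted p = 0.0639 and 0.064). IFT20, an intraflagellar transport gene, overlaps 361 bases of TMEM97, a sterol-regulated endoplasmic reticulum protein, and rose by 1.02 ± 0.29 (adjusted p = 0.0086). That call was lost without tamoxifen replicate 2 or without vehicle replicate 1 (adjusted p = 0.126 and 0.135), and with the counts of both partners summed its log2 difference was 0.24. The TMEM97 row stood at -0.21 ± 0.22. In the neutral line IFT20 stood at 0.23 ± 0.29, and the difference of 0.79 ± 0.41 SE did not pass the test.

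**Figure D2:**
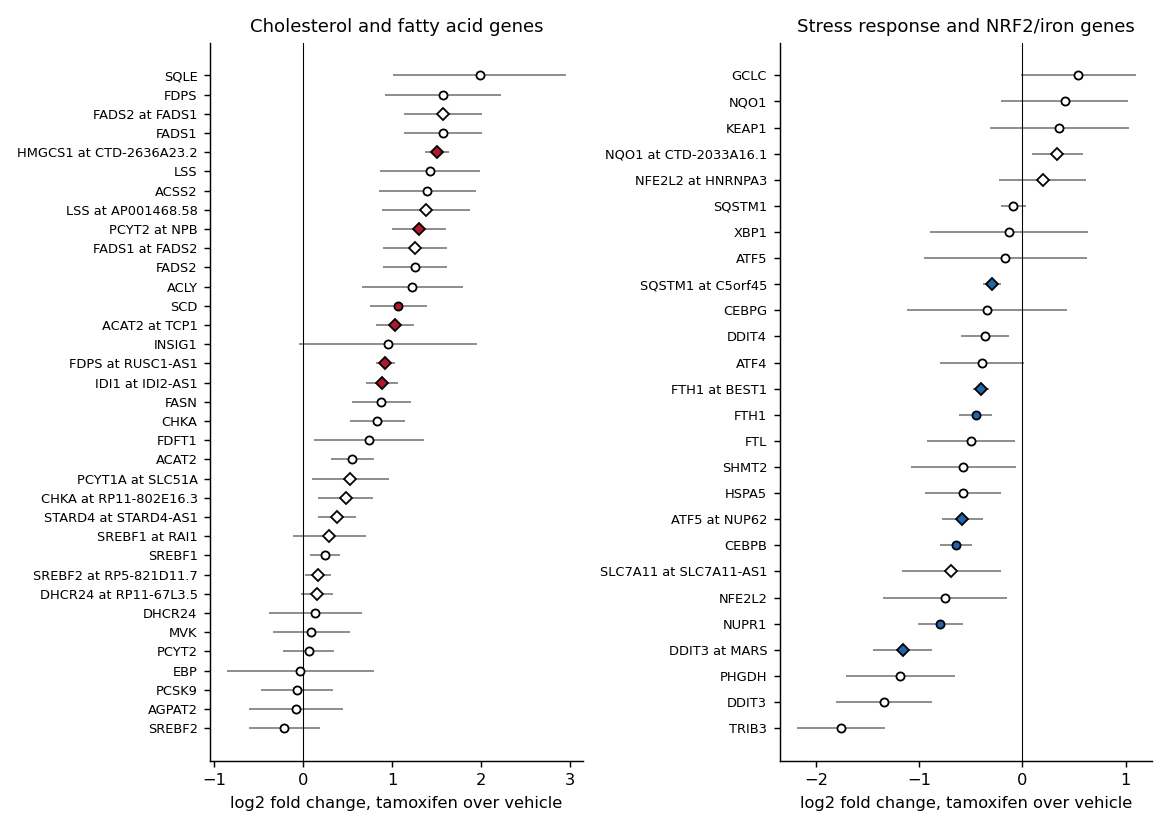
Log2 fold change, tamoxifen over vehicle, with its SE, for tested members of the cholesterol and fatty acid lists (left) and of the stress response and NRF2/iron lists (right). Circles are a member's own row, diamonds the row opposite it ("A at B" is member A read at row B), and filled symbols passed the test. Most lipid values lie right of 0 and most stress values left of it.

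Promoters of lipid genes are shown because several rows at these genes rose. TMEM97 is shown for the IFT20 row, and its own row did not pass the test. RefSeq windows (GRCh38.p14, 250 bases before to 50 after a start) were found for 36 of 70 named or opposite gene symbols. The sequences below are the 250 bases before the start, 5′ to 3′ on the strand of the gene, with each CCAAT box, read as CCAAT or ATTGG, in capitals. The CCAAT box, the site of the factor NF-Y, is a common promoter element, and this motif was chosen after the values were seen.
HMGCS1, chr5:43313413-43313662, minus strand: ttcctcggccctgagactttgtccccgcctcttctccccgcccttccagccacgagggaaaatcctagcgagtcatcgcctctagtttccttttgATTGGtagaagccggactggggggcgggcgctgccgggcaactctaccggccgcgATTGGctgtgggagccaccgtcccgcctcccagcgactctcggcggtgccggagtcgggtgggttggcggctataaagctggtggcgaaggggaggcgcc
FDPS, chr1:155308616-155308865, plus strand: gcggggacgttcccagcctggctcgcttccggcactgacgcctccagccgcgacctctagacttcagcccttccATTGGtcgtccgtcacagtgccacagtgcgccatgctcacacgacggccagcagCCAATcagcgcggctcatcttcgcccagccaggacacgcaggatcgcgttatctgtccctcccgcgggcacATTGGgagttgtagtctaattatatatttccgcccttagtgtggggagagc
SCD, chr10:100346983-100347232, plus strand: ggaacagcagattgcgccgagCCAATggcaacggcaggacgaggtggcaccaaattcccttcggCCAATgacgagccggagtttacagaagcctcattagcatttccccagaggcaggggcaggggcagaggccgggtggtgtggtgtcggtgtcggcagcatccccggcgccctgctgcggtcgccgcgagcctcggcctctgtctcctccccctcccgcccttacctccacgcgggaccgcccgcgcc
TMEM97, chr17:28318950-28319199, plus strand: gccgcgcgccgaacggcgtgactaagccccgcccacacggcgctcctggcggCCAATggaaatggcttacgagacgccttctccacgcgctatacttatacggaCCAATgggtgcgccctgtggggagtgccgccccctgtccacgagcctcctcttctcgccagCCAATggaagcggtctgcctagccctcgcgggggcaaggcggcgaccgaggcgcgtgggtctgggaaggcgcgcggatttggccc
Of 6 lipid genes with a window (these and IDI1 and PCYT2), 6 had a CCAAT box in some window. Of all 36 named or opposite symbols with a window, L3MBTL2 and HLA-B at rows that fell included, 19 had a CCAAT box. Over all 35116 windows 34.6% held one, and 39.7% of all symbols had one in some window. In IDI1 some matches on the 2 strands overlap (CCAATTGG). A full steroid response element (AGAACA and TGTTCT spaced by 3 bases) was in none of the 36 symbols' windows, and in 0.00285% of all windows and 0.00366% of all symbols. A single hexamer (AGAACA or TGTTCT) was in 1 of the 36 symbols, UBA6-DT, and in 14.8% of all windows and 17.5% of all symbols. The core of the sterol regulatory element (TCAC, any base, CCAC, both strands) was in 1 of the 36 symbols, L3MBTL2-AS1, and in 1.13% of all windows and 1.39% of all symbols. The matches are descriptions of these windows only.

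**Figure D3:**
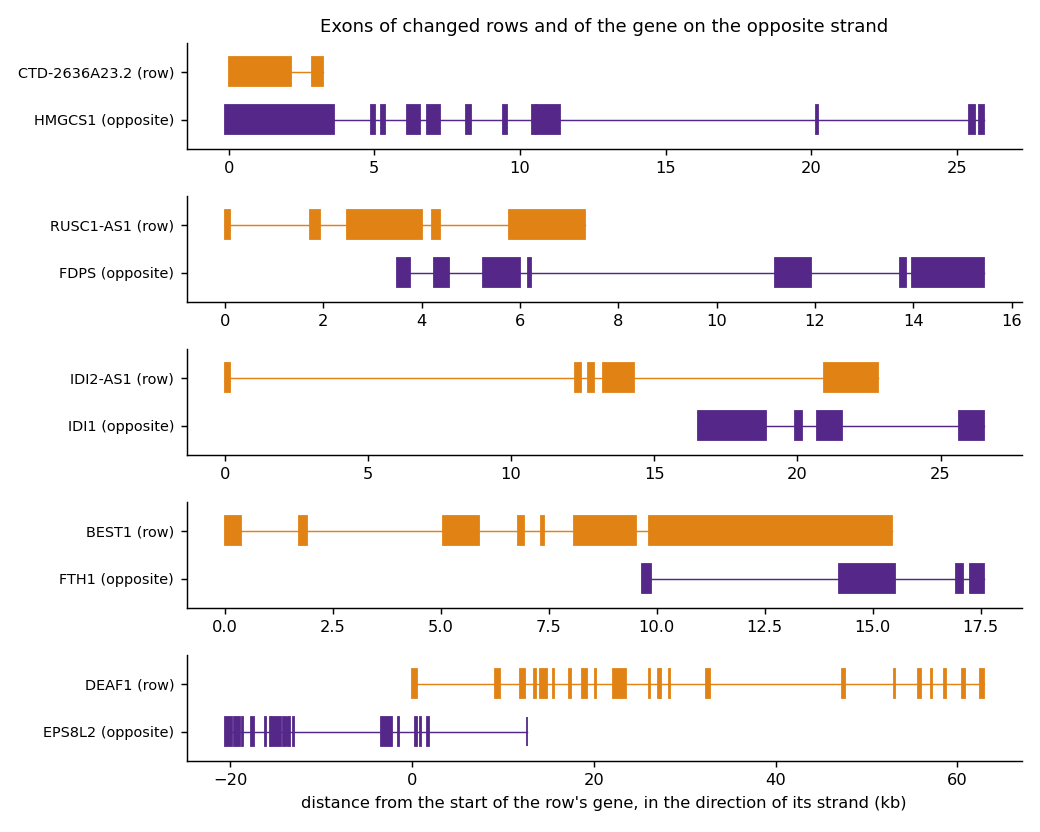
Exons (boxes) of 5 changed rows (orange) and of the gene on the opposite strand (purple), to scale, by distance in kb from the start of the row's gene. CTD-2636A23.2 lies inside the last exon of HMGCS1, the last exon of BEST1 covers much of FTH1, and DEAF1 shares 219 bases with EPS8L2.

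Stress response genes stood on the other side. The integrated stress response is set off by amino acid shortage, misfolded protein or other stress, and acts through ATF4 and partner factors on genes of amino acid supply and cell survival. None of its 12 testable own rows was above 0 and 2 fell (CEBPB and NUPR1), with a median log2 difference of -0.57, and of 3 opposite rows 2 fell (those at DDIT3 and ATF5), with a median of -0.69. In the neutral line these medians were 0.11 and 0.22.

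CEBPB, a bZIP factor that pairs with ATF4 (chromosome 20, 48807367 to 48809205, plus strand), overlaps 231 bases of the antisense gene CEBPB-AS1. It had 171, 228 and 177 normalized counts with vehicle and 125, 103 and 140 with tamoxifen. The groups did not overlap (log2 -0.65 ± 0.16 SE, adjusted p = 0.00113), and without vehicle replicate 2, its highest library, the adjusted p was 0.0545. In the neutral line the value was 0.42 ± 0.15, and the effects differed by -1.07 ± 0.22 SE (adjusted p = 0.000229). NUPR1, a stress-induced chromatin protein without an opposite gene, went from 133, 188 and 144 to 101, 104 and 62.65 normalized counts (log2 -0.80 ± 0.22 SE, adjusted p = 0.00548). The lowest vehicle library lay above the highest tamoxifen library, and the call was lost without tamoxifen replicate 3 or vehicle replicate 2 (adjusted p = 0.125 and 0.0998). In the neutral line NUPR1 stood at 0.32 ± 0.21, and the effects differed by -1.12 ± 0.305 SE (DESeq2 adjusted p = 0.0149). The repressive line also had lower NUPR1 with tamoxifen (-1.15 ± 0.23), whereas CEBPB stood at 0.001 ± 0.156 there.

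MARS, a methionyl-tRNA synthetase, had 60.7, 79.2 and 59.7 normalized counts with vehicle and 23.3, 32.6 and 33.2 with tamoxifen (log2 -1.16 ± 0.28 SE, adjusted p = 0.0012). In the neutral line MARS stood at -0.27 ± 0.27, and the difference of -0.89 ± 0.39 SE did not pass the test. The repressive line also had lower MARS with tamoxifen (-1.38 ± 0.29). Its row overlaps 519 bases of ARHGAP9, which had 0 counts in these libraries, and 355 bases of DDIT3, the stress factor CHOP. The DDIT3 row had 46, 52.1 and 29.9 normalized counts with vehicle and 17.2, 14 and 19.4 with tamoxifen (log2 -1.34 ± 0.46 SE), no overlap, and no adjusted p. TRIB3, a pseudokinase induced by CHOP, had 37.7, 57.9 and 59.7 against 19.3, 24.2 and 2.76 (log2 -1.76 ± 0.43 SE), again with no overlap and no adjusted p. Of all tested rows 16% had no overlap between the groups. NUP62, a nuclear pore protein, overlaps 565 bases of ATF5 and fell from 92, 107 and 103 to 79.1, 65.1 and 58 normalized counts (log2 -0.58 ± 0.20 SE, adjusted p = 0.0436). This call was lost in 5 of 6 fits that left out 1 library, all but that without tamoxifen replicate 1 (adjusted p 0.0847 to 0.271), while the row rose in the neutral line (0.60 ± 0.19) and the effects differed by -1.18 ± 0.28 SE (adjusted p = 0.00289). In the repressive line NUP62 stood at -0.17 ± 0.20.

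Among the changed rows, the highest mean count was that of BEST1, which lies opposite an iron storage gene. BEST1 is a chloride channel of the retina, and its row (chromosome 11, 61717535 to 61732987, plus strand) overlaps 1267 bases of FTH1, the ferritin heavy chain. It had 44910, 49670 and 49590 normalized counts with vehicle and 36190, 39790 and 32950 with tamoxifen, and the groups did not overlap (log2 -0.40 ± 0.08 SE, adjusted p = 1.38e-05). Its effect differed from that of the neutral line, where it rose by 0.32 ± 0.08 (difference -0.72 ± 0.11 SE, adjusted p = 3.66e-08). The FTH1 row itself held 223, 236 and 274 normalized counts with vehicle and 184, 172 and 180 with tamoxifen (log2 -0.45 ± 0.16 SE, adjusted p = 0.0475), a call lost in each of the 6 fits that left out 1 library (0.0831 to 0.281). The row opposite the ferritin pseudogene FTH1P10, CTD-2139B15.2, fell by 0.36 on the log2 scale, and near-identical copies can share reads. C5orf45 overlaps 1582 bases of SQSTM1, the autophagy receptor p62, and had 8027, 9244 and 8783 normalized counts with vehicle and 6912, 7875 and 6423 with tamoxifen (log2 -0.30 ± 0.09 SE, adjusted p = 0.0117). This call was lost without tamoxifen replicate 1 or 3 or vehicle replicate 2 or 3 (0.062 to 0.163). The SQSTM1 row did not pass the test (-0.09 ± 0.12). In the neutral line C5orf45 stood at -0.18 ± 0.09, and the difference of -0.12 ± 0.12 SE did not pass the test. Of the NRF2 and iron list, 7 own rows were testable, of which 3 were above 0 and 1 fell, with a median of -0.09 (0.05 in the neutral line). Of 4 opposite rows 2 were above 0 and 2 fell, with a median of -0.05 (-0.07 in the neutral line). Over all tested rows 1.46% fell.

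**Figure D4:**
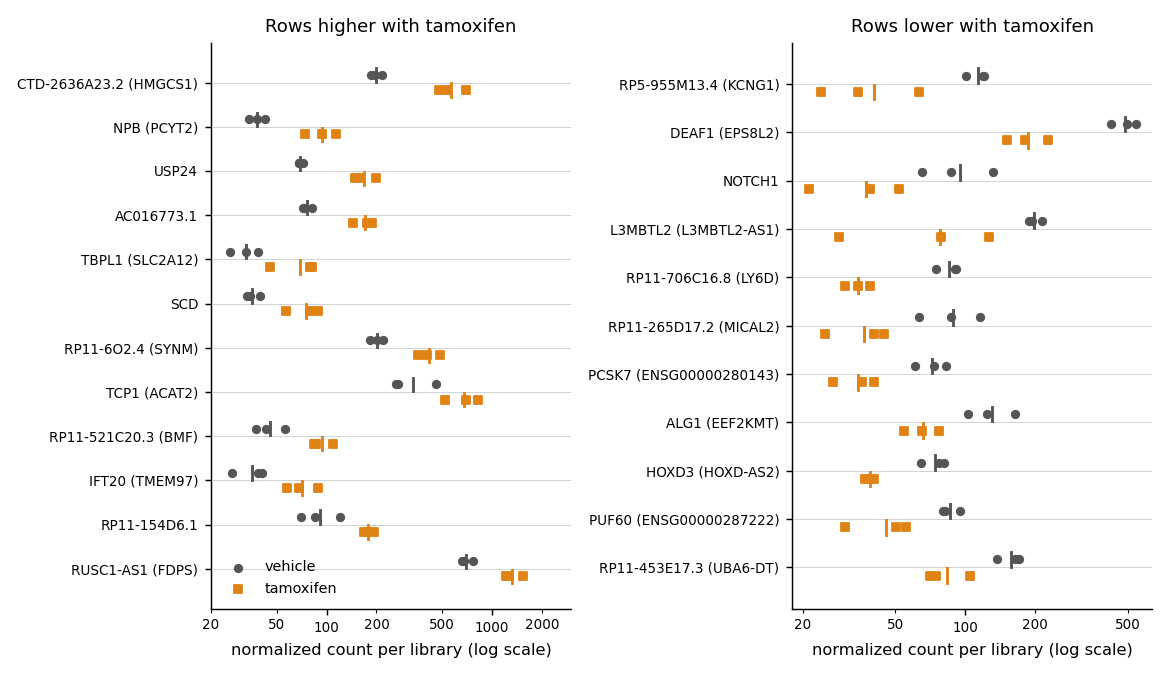
Normalized counts in each library (log scale) for the 12 well-counted rows that rose most and 11 of the 12 that fell most. Circles are vehicle, squares tamoxifen, short lines group means, and names in brackets the opposite-strand gene. The rows were selected for having no overlap between the groups, so that the squares lie apart from the circles by construction.

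The row that fell most was RP5-955M13.4, an lncRNA on chromosome 20 (49615907 to 49626556, plus strand) with 434 of its 802 bases opposite KCNG1, a modifier subunit of potassium channels. It had 120, 100 and 120 normalized counts with vehicle and 34.5, 63.3 and 23.95 with tamoxifen (log2 -1.48 ± 0.29 SE, adjusted p = 1.79e-05). All 3 tamoxifen libraries were lower, and the effect differed from that of the neutral line by -1.57 ± 0.40 SE (adjusted p = 0.00686). DEAF1, a DNA-binding regulator of epithelial and immune genes on chromosome 11 (644233 to 707118, minus strand), shares 219 bases (2.99% of its exons) with EPS8L2, an actin-bundling protein. DEAF1 had 423, 497 and 544 normalized counts with vehicle and 180, 228 and 152 with tamoxifen (log2 -1.39 ± 0.21 SE, adjusted p = 7.73e-09). The neutral line gave 0.14 ± 0.20, and the difference was -1.53 ± 0.29 SE (adjusted p = 5.07e-05). The EPS8L2 row had means of 71.6 ± 14.5 and 59.6 ± 20.6 (SD, n = 3 each) and did not pass the test.

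NOTCH1, a receptor that steers basal and luminal fate in prostate epithelium, has no opposite gene (chromosome 9, 139388885 to 139440500, minus strand). It had 65.3, 132 and 86.9 normalized counts with vehicle and 51.7, 39.1 and 21.2 with tamoxifen, the highest tamoxifen library lying just under the lowest vehicle library (log2 -1.35 ± 0.31 SE, adjusted p = 0.000477). The neutral line gave -0.82 ± 0.31 without an adjusted p, and the difference of -0.53 ± 0.44 SE did not pass the test. Of 7 testable own rows of the Notch list 1 fell and 1 was above 0, with a median of -0.77 (-0.28 in the neutral line). Over all 5816 tested rows 2905 were above 0 and 1.46% fell. The 1 testable row opposite a Notch member went the other way, at 1.39 (0.99 in the neutral line), and was not called. HES4, a Notch target, and NOTCH3 had log2 differences of -1.07 ± 0.38 and -0.87 ± 0.34, without overlap of the groups or an adjusted p. Groups without overlap were found at 16% of all tested rows.

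L3MBTL2, a member of a Polycomb-type repressor complex opposite its own antisense gene L3MBTL2-AS1, had 189, 213 and 194 normalized counts with vehicle and 79, 126.5 and 28.6 with tamoxifen (log2 -1.35 ± 0.38 SE, adjusted p = 0.0086). The tamoxifen libraries were widely spread, and the call was lost without tamoxifen replicate 1 or vehicle replicate 1 or 2 (0.0504 to 0.0628). With the partner's counts summed the value was -0.82. HOXD3, a homeobox gene opposite HOXD-AS2, went from 81, 64.7 and 76.9 to 40.5, 37.2 and 38.7 (log2 -0.94 ± 0.26 SE, adjusted p = 0.00774), and the call was lost without vehicle replicate 1 (0.0831).

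Other rows that fell most were RP11-706C16.8 (opposite LY6D, a surface marker of stratified epithelium, -1.31), RP11-265D17.2 (wholly opposite MICAL2, an actin oxidoreductase, -1.28), PCSK7 (a proprotein convertase, -1.07), ALG1 (a mannosyltransferase of N-glycan assembly, opposite EEF2KMT, -0.98), PUF60 (a splicing factor, -0.92) and the processed pseudogene opposite UBA6-DT (chromosome 4, 68584714 to 68589980, minus strand, -0.91). The largest overlap of PCSK7 and of PUF60 is with a gene that the annotation leaves unnamed, and PCSK7 also overlaps 2233 bases of TAGLN, an actin-binding protein whose row had means of 5.84 and 3.18. With the counts of opposite partners summed, the log2 difference of ALG1 was -0.43 (adjusted p = 0.0104). The PCSK7 call was lost without tamoxifen replicate 2 or vehicle replicate 3 (0.0767 and 0.0672), and that of PUF60 without tamoxifen replicate 3 or any 1 vehicle library (0.0502 to 0.223). Of these 6 rows, that at UBA6-DT passed the test of the difference from the neutral line, 4 did not and PCSK7 had no adjusted p for it.

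Rows outside lipid synthesis also rose. USP24, a deubiquitinase without an opposite gene, had 68.1, 68.55 and 71.5 normalized counts with vehicle and 158, 198 and 148 with tamoxifen (log2 1.28 ± 0.20 SE, adjusted p = 1.32e-08). It rose in the neutral line too (0.95 ± 0.20), and the effects were not shown to differ (0.32 ± 0.28 SE). RP11-6O2.4 lies for 79.1% of its bases opposite SYNM, the intermediate filament protein synemin, and had 220, 183 and 203 normalized counts with vehicle and 355, 403 and 482 with tamoxifen (log2 1.03 ± 0.16 SE, adjusted p = 1.32e-08). In the neutral line it stood at 0.01 ± 0.17, and the difference was 1.03 ± 0.23 SE (adjusted p = 0.00212). TBPL1 (a TBP-like factor, opposite the glucose transporter SLC2A12) rose by 1.09 ± 0.27 and RP11-521C20.3 (wholly opposite BMF, a BH3-only death factor) by 1.03 ± 0.25. In the neutral line TBPL1 rose by 1.25 ± 0.27 and RP11-521C20.3 stood at 0.69 ± 0.27, and neither difference passed the test. AC016773.1 and RP11-154D6.1 rose by 1.16 ± 0.30 and 0.96 ± 0.21. Neither identifier was matched to the annotation, so no opposite gene can be given. AC016773.1 had 74.5, 81.1 and 71.5 normalized counts with vehicle and 176, 189 and 144 with tamoxifen, whereas in the neutral and the repressive line its log2 differences were -0.66 ± 0.34 and -2.33 ± 0.41. Its effect differed from that of the neutral line by 1.82 ± 0.45 SE (adjusted p = 0.00644).

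Of 12 testable own rows of steroid receptor targets, 9 were above 0 with a median of 0.59 (0.22 in the neutral line), and 1 rose, KLF9. Of 2 opposite rows 1 rose, that at ALDH1A3. FKBP5, a chaperone of steroid receptors and a well-known steroid receptor target, had 46.9, 32.8 and 35.3 normalized counts with vehicle and 60.8, 43.7 and 63.6 with tamoxifen. The groups overlapped and the log2 difference was 0.55 ± 0.34 SE with no adjusted p, beside -0.87 ± 0.39 in the neutral and -2.59 ± 0.45 in the repressive line. TSC22D3, the glucocorticoid-induced factor GILZ, stood at 0.03 ± 0.35. ZBTB16, also called PLZF, was below the count filter, with 2, 3 and 2 raw counts against 9, 6 and 9. The ratio of its summed counts, 24 to 7, scaled by library totals, was 3.57 (exact 95% interval 1.49 to 9.8, for counting error only). In the neutral line ZBTB16 had 10, 3 and 3 counts with vehicle and 7, 1 and 5 with tamoxifen. KLF9, a hormone-induced zinc finger factor without an opposite gene, rose from 25.8, 39.6 and 38.9 to 76, 77.2 and 40.5 normalized counts (log2 0.89 ± 0.31 SE, adjusted p = 0.0436). Tamoxifen replicate 3 was close to the vehicle libraries, and the call was lost in 5 of 6 fits that left out 1 library, all but that without tamoxifen replicate 3 (0.073 to 0.284). RP11-66B24.4 overlaps 1715 bases of ALDH1A3, a retinal dehydrogenase and steroid receptor target. It had 2687, 2435 and 2348 normalized counts with vehicle and 3338, 3154 and 3393 with tamoxifen, all higher (log2 0.40 ± 0.07 SE, adjusted p = 3.57e-06). It stood at 0.06 ± 0.07 in the neutral line (difference 0.35 ± 0.10 SE, adjusted p = 0.0407) and fell by 0.63 on the log2 scale in the repressive line. The ALDH1A3 row, with means of 84.6 and 58.5, had a log2 difference of -0.53 ± 0.26 SE that did not pass the test.

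Keratin rows moved in both directions. KRT14, a basal keratin without an opposite gene, rose from 488.5, 460.5 and 615 to 754, 658 and 698 normalized counts (log2 0.43 ± 0.13 SE, adjusted p = 0.0155) and in the neutral line by 0.45 ± 0.13. The call in the activating line was lost without tamoxifen replicate 1 or 3 or vehicle replicate 1 or 2 (0.0619 to 0.156). KRT17 fell from 725, 657.5 and 748 to 524, 456 and 519.6 normalized counts (log2 -0.51 ± 0.13 SE, adjusted p = 0.00135), and its effect differed from the neutral line by -0.69 ± 0.18 SE (adjusted p = 0.00686). KRT8, a luminal keratin whose row overlaps 525 bases of its partner KRT18, had 689, 719 and 688 against 520, 562 and 582 (log2 -0.33 ± 0.09 SE, adjusted p = 0.00225, and 0.0557 without tamoxifen replicate 1). In the neutral line KRT8 stood at -0.26 ± 0.09, and the difference of -0.07 ± 0.12 SE did not pass the test. Of 18 testable basal rows 1 rose and 1 fell (median 0.16), and of 7 luminal own rows 1 fell (median -0.08). Of 5 luminal opposite rows 1 fell, again KRT8.

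An antigen presentation row fell by little. XXbac-BPG248L24.12 (opposite HLA-B) is a class I pseudogene row, in a family of near-identical copies among which reads can be split, with a log2 difference of -0.22 ± 0.08 (adjusted p = 0.0461). Its call was lost in 5 of 6 fits that left out 1 library (0.0631 to 0.259) and held only without tamoxifen replicate 2. None of 18 own rows of the interferon list was called, and 2 of its 6 opposite rows fell. NOP16, a nucleolar protein and MYC target opposite ARL10, rose by 0.28 ± 0.10 (adjusted p = 0.0475), a call lost in each of 6 such fits, and was the only one called of 14 own and 6 opposite rows of the MYC-linked list. Of the squamous differentiation list, none of 5 own rows was called and 1 of 4 opposite rows fell, that at LY6D. No own or opposite row of the S phase (10 and 5 testable), G2/M (9 and 2) or glycolysis and hypoxia (14 and 3) lists passed the test. The own-row medians of these lists were 0.33, -0.21 and 0.09, with 9 of 10, 3 of 9 and 8 of 14 rows above 0. In the neutral line these medians were -0.25, 0.295 and 0.20. In bulk libraries fewer cells of a kind and less RNA per cell cannot be told apart.

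**Figure D5:**
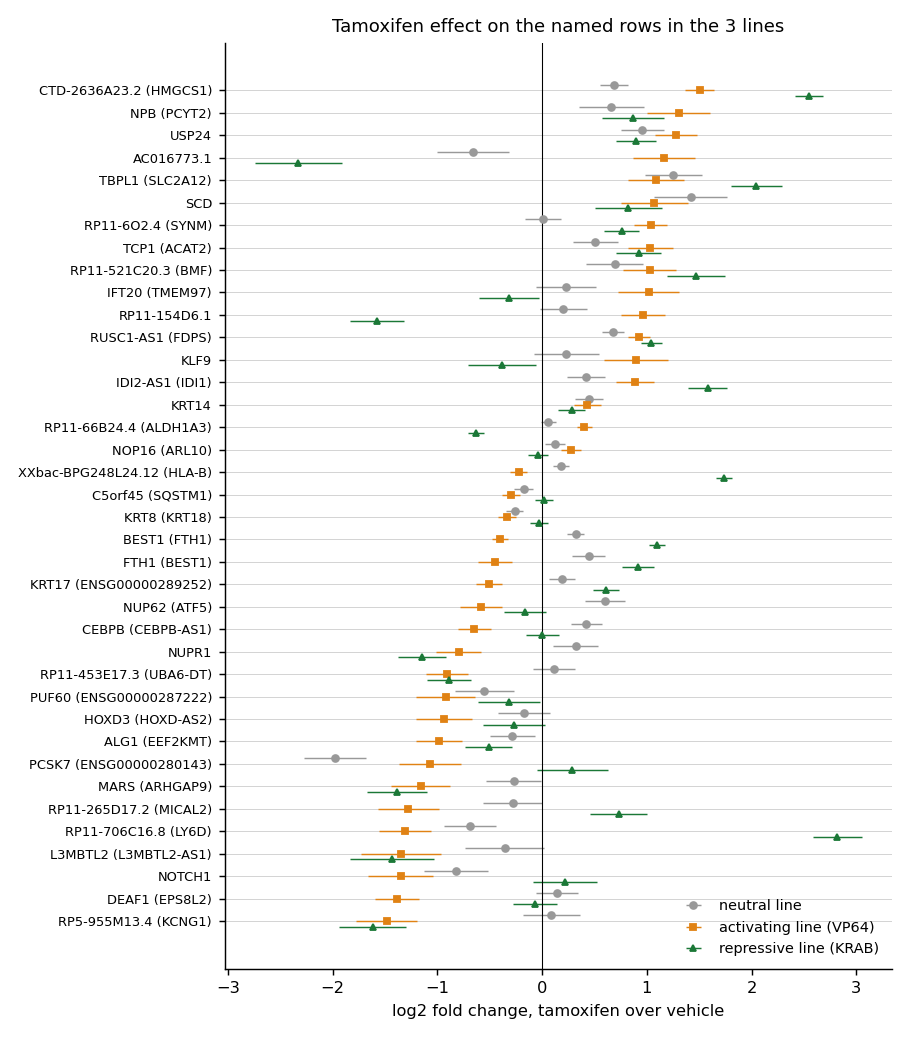
Log2 fold change, tamoxifen over vehicle, with its SE, of 38 named rows in the neutral (circles), activating (squares) and repressive (triangles) line, ordered by the activating line. Among the rows where the activating and neutral effects differed in the test are CTD-2636A23.2, BEST1, CEBPB, NUP62 and DEAF1.

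Side by side, the neutral line gave values of the same sign for 11 of the 12 rows that rose most and for 9 of the 12 that fell most. It called 4 of the former and none of the latter, but 5 of the former and 4 of the latter had no adjusted p there. PCSK7 was one of these, with means of 108 ± 17.3 and 27.5 ± 9.94 (SD, n = 3 each) in the neutral line, a log2 difference of -1.98 ± 0.30 SE. The repressive line called 8 of the 12 rows that rose most as higher and 2 as lower, AC016773.1 and RP11-154D6.1. Of the 12 that fell most it called 4 as lower and 1, RP11-706C16.8, as higher. The tamoxifen effect of the activating line differed from that of the neutral line at 36 of 5816 rows (0.619%). Among the 163 changed rows there were 28 of these, 12 that rose and 16 that fell, and 8 had no adjusted p for the difference. Of the 40 rows that the naming rule selects, 4 of 17 that rose and 10 of 23 that fell differed.

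The remaining 123 rows, 61 higher and 62 lower, lie between 0.18 and 1.63 and between -0.18 and -1.19 on the log2 scale. They are given, where reported, with the opposite gene of the largest overlap, which each may stand for, sorted by what that gene is known to do, a sorting made after the values were seen. Of the 61 that rose, 52 had an opposite gene. Of all 163 changed rows, 42 overlapped more than 1 opposite gene. Among them RUSC1-AS1 also overlaps RUSC1 (400 bases), ALG1 NAGPA (301), L3MBTL2 CHADL (117), HOXD3 HAGLR (138), NOP16 HIGD2A (177), FAM161B COQ6 (404), ZBTB46 SLC2A4RG (383) and PKMYT1 KREMEN2 (357).
Membrane transport and lipid handling came first among them. LTBR lies opposite SCNN1A, a subunit of the epithelial sodium channel. SLC7A6OS lies opposite the amino acid transporter SLC7A6, FKBP15 opposite the copper transporter SLC31A2, and CTC-518P12.6 opposite PLIN3, a lipid droplet protein. FAM151A lies opposite ACOT11 (acyl-CoA thioesterase), RNF24 opposite PANK2 (pantothenate kinase), RP1-125I3.2 opposite PAQR7, and PKMYT1 opposite PAQR4.
Genes of metabolism and protein quality followed. CBR3-AS1 and AP000688.14 lie opposite the carbonyl reductases CBR3 and CBR1, RP11-192H23.5 opposite aldolase ALDOC, and RP5-956O18.3 opposite the glycosyltransferase GALNT2. CTC-425F1.4 lies opposite the chaperone CALR, RP11-138I1.4 opposite ubiquitin gene UBB, PINK1-AS opposite the mitochondrial kinase PINK1, SRSF9 opposite GATC, and PTPMT1 opposite KBTBD4.
Cytoskeleton, adhesion and signalling genes lay opposite VIM-AS1 (VIM), CAPN12 (ACTN4), TAF10 (ILK), RP11-386G11.10 (TUBA1B), RP13-39P12.3 (DLG5), TREH (PHLDB1) and RP11-27M24.1 (EMP2). The same holds for RP11-307C12.12 (SHC1), ARAP1-AS1 (ARAP1), RP11-875O11.1 (RHOBTB2), AP001615.9 (RIPK4), RP4-594I10.3 (RCAN3) and CASKIN1 (TRAF7).
Genes of the nucleus lay opposite RP11-973D8.4 (CDK2), SYNC (RBBP4), RP13-638C3.4 (FOXK2), AC074212.5 (SIX5), RP11-582J16.5 (CCAR2), MFSD11 (SRSF2), RP1-313I6.12 (ZNF165), CD3EAP (ERCC1), PYROXD1 (RECQL) and BBIP1 (PDCD4).
Other pairs were AC004510.3 (the lncRNA UCA1, 1.63, with a mean just under the naming limit of 50), ADIRF-AS1 (ADIRF) and RPL31 (TBC1D8, 40 bases). HLA-F, UBXN6, CSNK1D, S100A6 and HIST2H2AA3 have their largest overlap with unnamed genes. HLA-F also overlaps HLA-F-AS1 (535 bases) and RPL23AP1 (257), UBXN6 overlaps MIR4746 (71) and CHAF1A (20), and CSNK1D overlaps the lactate transporter gene SLC16A3 (482). Among those without an opposite gene were ACTB, SLC47A2, HIST2H3C and HIST2H3A, and the last 2 were identical in all libraries, as near-identical copies would be. RP11-196G18.22, AC008443.1, RP11-77H9.5 and Z98256.1 were not matched.

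Of the 62 remaining rows that fell, 53 had an opposite gene.
Amino acid, protein folding and mitochondrial genes lay opposite RP11-498C9.13 (PYCR1, the last enzyme of proline synthesis, -0.84), RP11-110I1.6 (HYOU1, an endoplasmic reticulum chaperone, -0.65), EIF2AK1 (AIMP2, a scaffold of tRNA synthetases, -0.66), VTI1B (ARG2, arginase, -0.47), DNASE1 (TRAP1, a mitochondrial chaperone, -0.31) and PMPCB (DNAJC2, -0.67). EIF2AK1 is itself a kinase of the integrated stress response.
Genes of chromatin, transcription and the cell cycle lay opposite ITFG2 (FOXM1), RP11-611O2.5 (MDM2), AC009133.15 (MAZ), RP4-781K5.2 (IRF2BP2), RP5-1050D4.3 (CAMTA2), SULF2 (NCOA3), SNAP47 (JMJD4), FAM149B1 (DNAJC9) and C12orf65 (CDK2AP1). Others of this kind were CTC-564N23.2 (ZBED3), RP11-96L14.7 (ZNF593), CEP164P1 (ZNF22), FAM161B (ZNF410), ZNRD1-AS1 (POLR1H) and RP11-229P13.23 (SAPCD2).
Signalling, membrane and cytoskeleton genes lay opposite NUDT6 (FGF2), BRD7 (ADCY7), CTB-79E8.2 (NEURL1B), MAPKAPK5-AS1 (MAPKAPK5), RP11-567I13.1 (CSNK2A3), NDUFB9 (MTSS1), RP11-244F12.2 (TPM1), ERCC2 (KLC3), RP11-4K16.2 (MAL2) and RP11-421F16.3 (TM7SF3). An lncRNA row lies opposite the ubiquitin ligase gene TRIM25 (-0.52), RP11-1100L3.7 opposite ATG101, FBXL6 opposite the riboflavin transporter SLC52A2, RP11-661A12.9 opposite NAPRT, and MXD3 opposite PRELID1.
Other pairs were CTD-2139B15.2 (FTH1P10), SLC5A2 (RUSF1), FCHSD1 (RELL2), TMEM140 (CYREN), UNC45A (HDDC3), SLC25A35 (RANGRF), CPSF3L (PUSL1), U47924.31 (C12orf57) and TMOD1 (TSTD2).
The homeobox gene HOXA10 (HOXA10-AS), TCEB3 (ELOA-AS1), ZBTB46 (ZBTB46-AS2) and PITPNA (PITPNA-AS1) lie opposite their own antisense genes, and LINC00847, IL17D, LRRC37A16P and AC010327.2 have their largest overlap with unnamed ones. LINC00847 also overlaps the lncRNA HEIH (1227 bases), and AC010327.2 overlaps TMEM86B (1566) and PPP6R1 (501). ACO1, the iron regulatory aconitase, the linker histone gene H1F0, PMS2P4 and HERC3 had no opposite gene. AL139099.1, AC103801.2, AL441883.1, RP5-977B1.11 and AC119673.1 were not matched.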

How the data were processed

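Stranded mRNA libraries of RWPE1 cells were sequenced by the authors on an Illumina NovaSeq. The deposited table holds expected counts per gene, estimated by the authors with Salmon (submitters' notes: Salmon 1.9.0, DESeq2 1.28.0) on GRCh37, without normalization. The strand setting was not given in the sources used here. Of its values, 1.1% were not whole and were rounded. Of 57773 rows, 20175 had a count, and the 5816 with at least 10 counts in at least 3 of 18 libraries were tested and held 97.6% of all counts. Groups came from the sample labels, and all sample columns were mapped.

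One DESeq2 model (1.42.0, R 4.3.3) with a mean per group was fitted to all 18 libraries. It gave unshrunken log2 fold changes, Wald tests with Benjamini-Hochberg adjusted p under 0.05, and the difference between the activating and neutral tamoxifen effects. Alternatives used edgeR 4.0.16, limma 3.58.1 and the settings named in the closing section. The procedure was tested on simulated data. Tables were handled in Python 3.11.15 with pandas 2.3.3. Opposite-strand exon overlaps came from GENCODE v44 lifted to GRCh37, to which 96.1% of the rows matched by identifier. They held for 89% of matched counts.

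Named were the 12 rows higher and 12 lower with the largest change among called rows with a mean of at least 50 and no overlap between groups, called members of 18 gene lists (314 members, 312 resolved, read at their own and their opposite row) and fixed steroid receptor targets and construct checks. CD24 and PECAM1 were not analysed here, and some genes are not reported here. Members and lists were chosen with earlier results of these data known. The floor of 3 counts and count intervals cover counting error only. Replicates of the activating line differed beyond counting noise (chi-square per degree of freedom 3.3 to 3.92).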

Additional observations from a re-analysis of the deposited data

Results flagged for a closer look

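The tamoxifen effect of the activating line differed from that of the neutral line, by the DESeq2 test of the difference, at 14 of the 40 named rows. Values are activating minus neutral, on the log2 scale. It was higher at CTD-2636A23.2 opposite HMGCS1 (0.82), at AC016773.1 (1.82), at RP11-6O2.4 opposite SYNM (1.03) and at RP11-66B24.4 opposite ALDH1A3 (0.35).

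It was lower at RP5-955M13.4 opposite KCNG1 (-1.57), DEAF1 opposite EPS8L2 (-1.53) and the pseudogene row opposite UBA6-DT (-1.02). Also lower were the stress response genes NUPR1 (-1.12) and CEBPB (-1.07), and NUP62 opposite ATF5 (-1.18), a row that rose in the neutral line. So were FTH1 (-0.89) and BEST1 opposite FTH1 (-0.72), which share exons and are not independent, KRT17 (-0.69) and XXbac-BPG248L24.12 opposite HLA-B (-0.40). Each line is 1 construct in 1 cell line, so that the effector and the line cannot be told apart. Groups of 3 libraries were not tested for outlying libraries.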

How the results depend on the processing

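The 163 changed rows became 101 with a replicate block (91 of them shared), 102 with edgeR (87 shared), 21 with an absolute log2 fold change above 1 required as well, and 8 (5 higher, 3 lower, 3 shared) when only rows without opposite-strand overlap were tested, which leaves fewer rows. There the calls of SCD (adjusted p = 0.134), NUPR1 (0.082), KRT14 (0.163) and KLF9 (0.427) were lost. Leaving out 1 library gave 94 to 129, the lowest without tamoxifen replicate 3 (94) and vehicle replicate 2 (96). Other settings gave 112 (limma-voom) to 174 (at least 30 counts), and 141 with opposite partners summed. The 36 rows that differed from the neutral line became 17 with edgeR, 19 with limma-voom, 22 without independent filtering, 12 with the fold threshold and 2 without opposite overlap, and 24 to 39 with 1 library left out, the lowest without activating tamoxifen replicate 3. Of the 163 changed rows, 15 had no opposite-strand overlap, and 3 of these were called when only such rows were tested. Except where a fold was required, the cause of these changes in number was not tested. No named row changed direction. Leaving aside the fold threshold, and the setting without opposite overlap for rows that have one, 22 of the 40 called ones were called under every alternative. Of the others, 8 were lost with edgeR, 11 with the block, 6 with partners summed and 17 without some library. Total-count scaling moved the share of higher calls from 47.9% to 54.8% and the median of all rows by 0.02. Same-numbered libraries of the activating line correlated at 0.116, 0.138 and 0.0478 in their deviations, so the numbers were not taken to pair them, although each library correlated best with its own number. Rows with few counts limit the lipid and stress lists, where many members had no adjusted p.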

Other observations

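The following rows were chosen after their values were seen. LTBR, a TNF-family receptor whose row lies opposite the sodium channel gene SCNN1A for 422 bases, had 519, 537 and 529 normalized counts with vehicle and 822, 719 and 742 with tamoxifen. All 3 tamoxifen libraries were higher, and the row rose by 0.53 in the activating line while the values were -0.77 in the neutral and -2.73 in the repressive line. Its activating effect differed from the neutral one by 1.30 (DESeq2 adjusted p = 1.04e-18). The linker histone gene H1F0 fell from a mean of 258 to 157 normalized counts.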
